A study of Mus musculus with 18 samples.

Results

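Expression of 10 genes of the actin cytoskeleton was followed across isolated mouse islets, out of 24346 gene symbols listed in each library. They were the cytoplasmic actins Actb and Actg1, the tropomyosins Tpm1 and Tpm4, cofilin (Cfl1), profilin (Pfn1), the thymosins Tmsb4x and Tmsb10, the myosin light chain Myl9 and the transcription factor gene Srf. The set was put together because Actb was more than 2-fold lower on a high-fat diet in both genotypes, and the question was whether its partners shared that difference. The set was thus selected on the FPKM values of the diet comparison, which are given for these genes as a description with no test. All 10 were among the 12234 genes that passed the filter on low values. As deposited, Actb alone was lower by more than 2-fold, Tpm4 was lower by less in both genotypes, and Actg1 and Srf were higher in both. How many genes lie below 0 depends on the scaling: with every library rescaled to the same sum, 9 of the 10 differences were negative in each genotype, as was the median of all tested genes.

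The islets came from C57BL/6 mice in 6 groups of 3 libraries. In one genotype exon 2 of Cdh13, which encodes T-cadherin, was deleted, and in the other it was flanked by loxP sites and is called floxed here; the design text names them KO and WT. The labels name no Cre driver and no tissue of deletion, and they give neither sex nor whether animals were pooled. Chow-fed animals of each genotype were sampled when 8 or 14 weeks old, and a further group of each, 14 weeks old, had been on a high-fat diet for the last 6 weeks. Nothing in the labels says that libraries of a group came from separate animals, so p-values measure the spread between these libraries.

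Actin exists as monomers and as filaments, and cells move it between these states with a small set of proteins. Profilin and the thymosins bind monomers, cofilin cuts and disassembles filaments, tropomyosins coat and protect them, and myosin pulls on them. In beta cells the filament network under the membrane restrains and guides insulin granules. SRF is switched on with its MRTF cofactors when free monomers become scarce, and actin genes and Srf itself are among its known targets. Actb is also a widely used reference gene for normalising expression.

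Expression was deposited as FPKM, fragments scaled to transcript length and library size, with no counts. The read depth is unknown, and no interval from counting can be given. Summed FPKM ran from 903346 to 1394009 per library, and Ins2 alone took 40.2% to 52.7% of it, most in the high-fat diet libraries (51.7% to 52.7% in floxed islets against 40.3% to 42.6% at 14 weeks on chow). Beta cell markers dominated, at 49.4% to 62.5% of the summed FPKM, which matches the labelled tissue. Cdh13 averaged 1.34, 1.67 and 1.33 FPKM in the floxed groups (8 weeks, 14 weeks, high-fat diet) and 0.632, 0.551 and 0.456 FPKM in the deleted groups. Differences are on the log2(FPKM + 1) scale from limma, each with its standard error (SE), and a gene is called when its Benjamini-Hochberg adjusted p over 12234 tested genes is below 0.05.

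Actb and Actg1 encode nearly the same protein from different chromosomes, and their coding sequences show how far reads can tell them apart. Actb lies on the minus strand at chr5:142903115-142906754 and Actg1 on the minus strand at chr11:120345690-120348542 (GRCm38, GENCODE M21). Their coding regions are 1125 bases each, are 88.6% identical and differ at 128 positions, 120 of them the third base of a codon. The first 90 coding bases from the GENCODE transcripts are shown with the 16 differing bases in capitals.
Actb: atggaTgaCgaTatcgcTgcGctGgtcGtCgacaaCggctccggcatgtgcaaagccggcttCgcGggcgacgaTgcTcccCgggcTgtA
Actg1: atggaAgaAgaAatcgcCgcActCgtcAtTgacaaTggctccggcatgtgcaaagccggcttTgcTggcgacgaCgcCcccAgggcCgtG
The longest stretch without a difference is 62 bases. Of the 50-base windows of the transcript, 14.2% for Actb and 56.7% for Actg1 also occur in a transcript of another gene. For Actb the genes sharing most were Lrrc58, Actg1 and Gm15725. For Actg1 they were the pseudogenes Gm12715, Gm8399 and Actg-ps1. The same share is 43.5% for Tmsb10, 23% for Cfl1, 16.1% for Tpm4 and 0% for Tpm1, Pfn1, Tmsb4x, Myl9 and Srf. How the authors' counting treated shared reads is not given in the sources used here, so the split between such copies is uncertain.

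SRF binds the CArG box, a motif of 10 bases that was searched for on both strands in the 250 bases upstream of each start site in RefSeq (GRCm38.p6). Of the 10 genes 9 had an entry there, and Actb did not. A box was found for 3 of them: 1 for Actg1, 1 for Myl9 and 2 for Srf. The windows are shown on the gene's strand with the boxes in capitals and 20 flanking bases, because Srf and Actg1 were the genes higher on the diet in both genotypes.
Actg1, chr11:120348556-120348605, minus strand: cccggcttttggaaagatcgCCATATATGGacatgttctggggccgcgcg
Myl9, chr2:156775283-156775332, plus strand: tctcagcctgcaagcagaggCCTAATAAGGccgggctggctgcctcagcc
Srf, chr17:46556195-46556264, minus strand: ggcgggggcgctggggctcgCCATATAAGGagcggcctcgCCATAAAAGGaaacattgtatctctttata
The box of Actg1 began 90 bases upstream of the start site and that of Myl9 161 bases upstream. The boxes of Srf began 82 and 62 bases upstream. No window overlaps an annotated exon. Among all RefSeq promoters of this length, 1.47% (482 of 32851) held a box, as did 1.62% of genes. A match describes the letters only, and for Tpm1, Tpm4, Cfl1, Pfn1, Tmsb4x and Tmsb10 the search says only that the motif is not in this window.

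Levels per length were ordered alike in nearly all libraries. Actg1 was highest at 1176 ± 140 FPKM (SD, n = 18), followed by Tmsb4x at 389, Pfn1 at 269, Cfl1 at 241, Actb at 193, Tpm4 at 77.4, Tpm1 at 59.5, Tmsb10 at 29.8, Srf at 2.52 and Myl9 at 0.817 FPKM. In 18 of 18 libraries each gene stood above the next, except that Pfn1 exceeded Cfl1 in 17 and Cfl1 exceeded Actb in 14. On chow at 14 weeks Actb and Cfl1 were near each other, at 264 and 269 FPKM in floxed and 249 and 247 FPKM in deleted islets. On the high-fat diet Actb was below Cfl1 in all 6 libraries, at 105 against 213 FPKM in floxed and 104 against 229 FPKM in deleted islets.

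**Figure D1:**
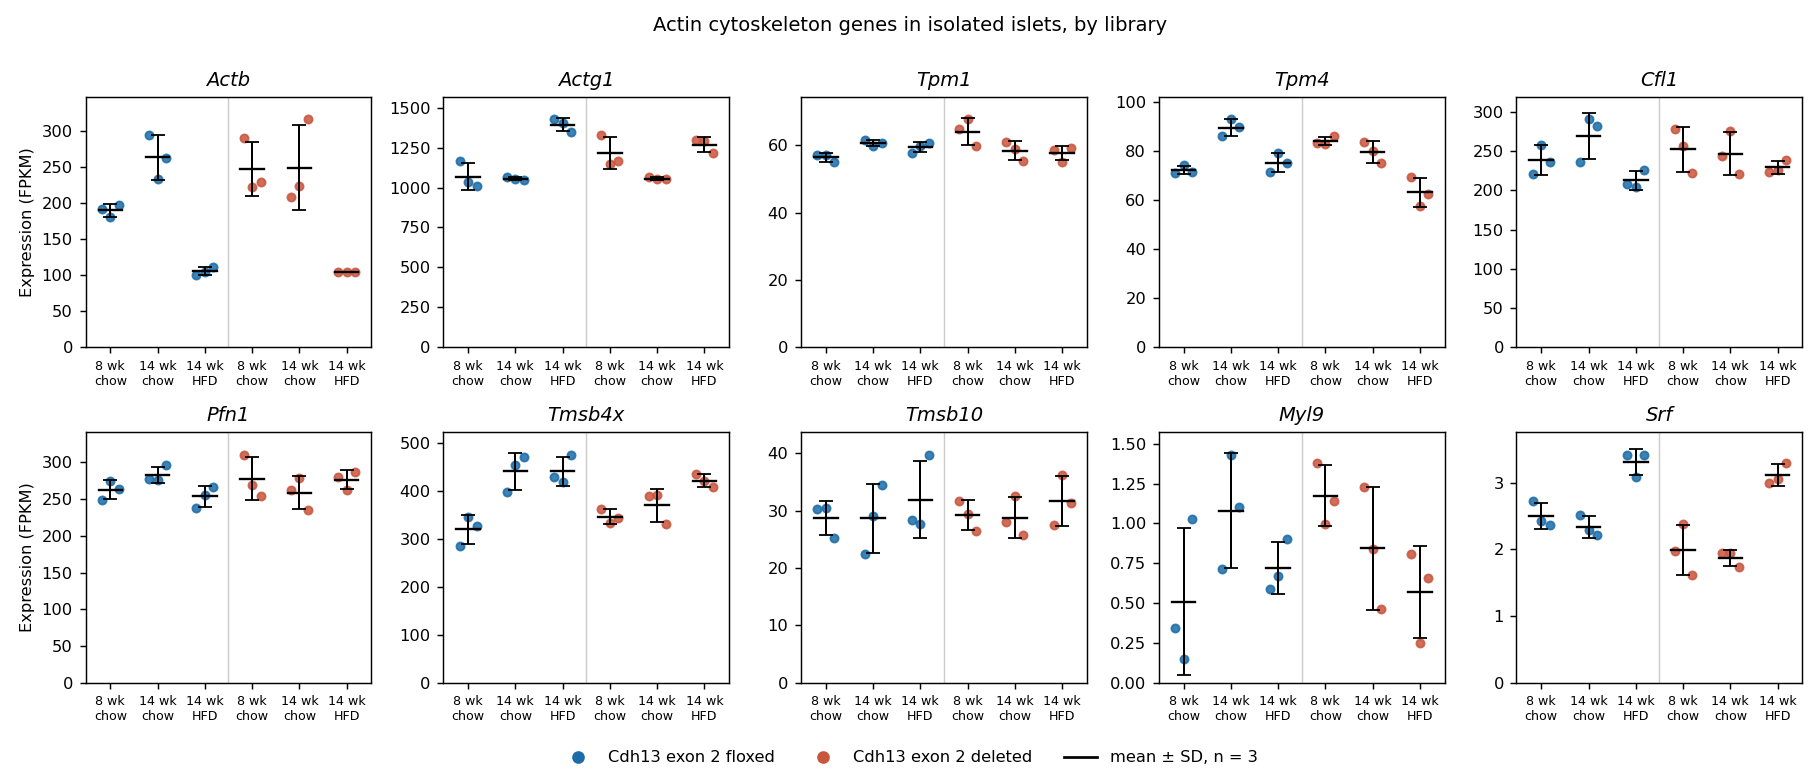
FPKM of the 10 genes in each library (points) by group, with mean ± SD (bars, n = 3). The 6 high-fat diet libraries of Actb lie between 100.1 and 111 FPKM, under all 12 chow libraries, while those of Srf lie between 2.99 and 3.42 FPKM, over all 12.

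The first comparison was high-fat diet against chow at 14 weeks within each genotype. Actb, the gene the set was built on, stood at 295, 233 and 263 FPKM in the floxed chow libraries and at 100.1, 105 and 111 FPKM in the floxed high-fat diet libraries. In deleted islets it stood at 208, 224 and 316 FPKM on chow and at 104, 104 and 105 FPKM on the diet. The diet libraries were low in both genotypes, did not overlap with chow, and were far more alike than the chow libraries (SD 5.66 and 0.607 against 30.7 and 57.8 FPKM). Mean FPKM was 2.5-fold lower in floxed and 2.4-fold lower in deleted islets, with log2 differences of -1.31 (SE 0.124) and -1.23 (SE 0.124). Of the 12234 tested genes, 62 and 60 had a lower difference than Actb, and 96 and 89 had one below -1. The next largest differences toward lower values were far smaller, at 1.27-fold for Cfl1 in floxed and 1.26-fold for Tpm4 in deleted islets, leaving aside Myl9, whose highest library was at 1.43 FPKM.

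Actg1, the more abundant cytoplasmic actin, was higher on the diet in both genotypes. It stood at 1064, 1054 and 1045 FPKM in floxed islets on chow and at 1426, 1403 and 1349.7 FPKM on the diet. In deleted islets the chow libraries read 1065, 1051 and 1052 FPKM and the diet libraries 1299.9, 1289 and 1214 FPKM. The groups did not overlap in either genotype, and the log2 differences were 0.40 (SE 0.0643) and 0.26 (SE 0.0643) as deposited, but the sign turned to -0.07 and -0.20 when every library was rescaled to the same sum, and to -0.05 in deleted islets under quantile normalisation. The same-sum rescaling also moved the median of all tested genes, to -0.409 and -0.405. Relative to that median Actg1 was at 0.34 and 0.21, and Actb at -1.37 and -1.28.

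A factor common to all genes of a library leaves the ratio of both actin genes as it is; quantile normalisation does not use such a factor. Actb made up 20% ± 1.79 (SD, n = 3) of the summed Actb and Actg1 FPKM in floxed islets at 14 weeks on chow and 7.05% ± 0.538 on the diet. In deleted islets the shares were 19% ± 3.57 and 7.59% ± 0.302. At 8 weeks they were 15.1% ± 1.08 in floxed and 16.8% ± 0.932 in deleted islets. All 12 chow libraries lay between 14.2% and 23.1%, and all 6 diet libraries between 6.56% and 7.94%. The sum of both genes was 1318 ± 36.7 FPKM on chow and 1499 ± 33.8 FPKM on the diet in floxed islets, and 1306 ± 54.1 and 1372 ± 46 FPKM in deleted islets, so as deposited the sum was not lower on the diet.

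**Figure D2:**
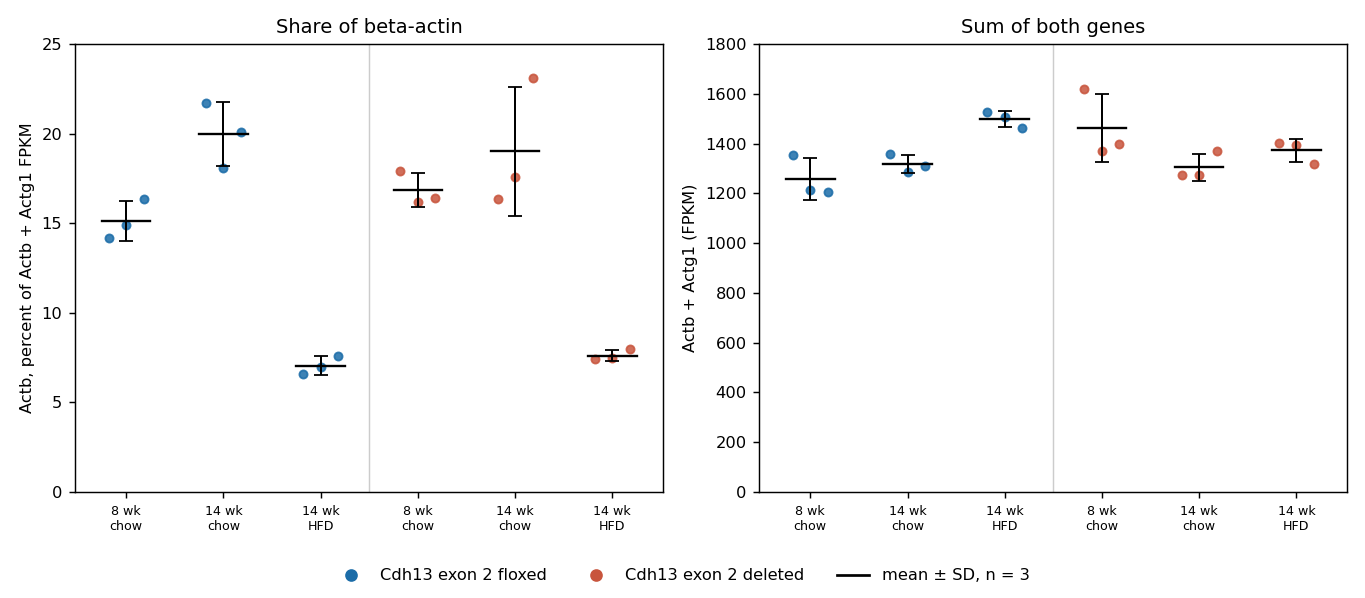
Actb as a percent of the summed Actb and Actg1 FPKM (left) and that sum in FPKM (right), per library (points) with mean ± SD (bars, n = 3). The 6 diet libraries sit between 6.56% and 7.94%, below the 12 chow libraries at 14.2% to 23.1%.

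Among the filament-coating tropomyosins, Tpm4 was lower on the diet in both genotypes and Tpm1 was within its spread. Tpm4 read 86.3, 93 and 89.8 FPKM on chow and 71.4, 79.3 and 75.4 FPKM on the diet in floxed islets. In deleted islets it read 83.9, 80 and 75.1 FPKM on chow and 69.6, 57.5 and 62.5 FPKM on the diet. The groups did not overlap, and the log2 differences were -0.25 (SE 0.0663) and -0.33 (SE 0.0663). Tpm1 lay between 55 and 67.7 FPKM in all 18 libraries, with log2 differences of -0.03 (95% interval -0.15 to 0.09) and -0.02 (-0.14 to 0.10).

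As deposited, the monomer and turnover proteins did not share one direction. Cfl1, which severs filaments, read 236, 290.2 and 282 FPKM on chow and 208, 204 and 226 FPKM on the diet in floxed islets, a log2 difference of -0.34 (SE 0.0937). In deleted islets its groups overlapped, and the log2 difference was -0.10 (95% interval -0.30 to 0.10). Pfn1, which hands monomers to growing filaments, had log2 differences of -0.16 (-0.32 to 0.00) in floxed and 0.10 (-0.06 to 0.26) in deleted islets. Tmsb4x, the main monomer-sequestering thymosin, had differences of 0.00 (-0.17 to 0.18) and 0.19 (0.01 to 0.36), with 389, 391 and 330.2 FPKM on chow and 434, 421 and 407 FPKM on the diet in deleted islets. For its relative Tmsb10 the differences were 0.15 (-0.17 to 0.47) and 0.13 (-0.19 to 0.45), with libraries from 22.5 to 39.7 FPKM that overlapped throughout. With the same sum per library Cfl1, Pfn1, Tmsb4x and Tmsb10 were all below 0, at -0.81, -0.63, -0.47 and -0.31 in floxed and -0.56, -0.37, -0.28 and -0.32 in deleted islets. Relative to the median of all genes under that scaling they were at -0.40, -0.22, -0.06 and 0.10 in floxed and -0.16, 0.04, 0.12 and 0.09 in deleted islets.

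Myl9 and Srf were the least abundant of the set. Myl9, a regulatory light chain of smooth muscle and non-muscle myosin, lay between 0.151 and 1.43 FPKM with overlapping groups, and its differences of -0.27 (-0.69 to 0.16) and -0.23 (-0.65 to 0.20) are understated by the added 1. Srf read 2.52, 2.29 and 2.21 FPKM on chow and 3.42, 3.09 and 3.42 FPKM on the diet in floxed islets. In deleted islets it read 1.95, 1.94 and 1.73 FPKM on chow and 2.99, 3.06 and 3.3 FPKM on the diet. The diet libraries were higher without overlap, by 1.41-fold and 1.66-fold in mean FPKM, with log2 differences of 0.37 (SE 0.105) and 0.52 (SE 0.105) that became 0.02 and 0.19 under the same-sum rescaling, or 0.43 and 0.59 relative to the median of all genes.

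The rule's own comparison called 5 of the 10 genes in floxed islets, 3 lower (Actb, Tpm4, Cfl1) and 2 higher (Actg1, Srf), against 28.5% of all tested genes, 13.5% lower and 15% higher. In deleted islets it called 4, 2 lower (Actb, Tpm4) and 2 higher (Actg1, Srf), against 15% of all genes, 5.91% lower and 9.05% higher. Groups did not overlap for 6 of the 10 in floxed (4 lower) and 5 in deleted islets (2 lower), against 43.3% and 33.7% of all genes. The median difference of the 10 was -0.09 and 0.04, beside -0.01 and -0.00 over all tested genes. Nothing is read from these counts, since the comparison served to choose the set. All-gene splits depend on scaling: calls were 52.6% and 60.5% higher as deposited (floxed, deleted), 3.5% and 2.3% higher with the same sum per library, and 25.2% and 24.1% with the same sum leaving out the hormone genes.

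**Figure D3:**
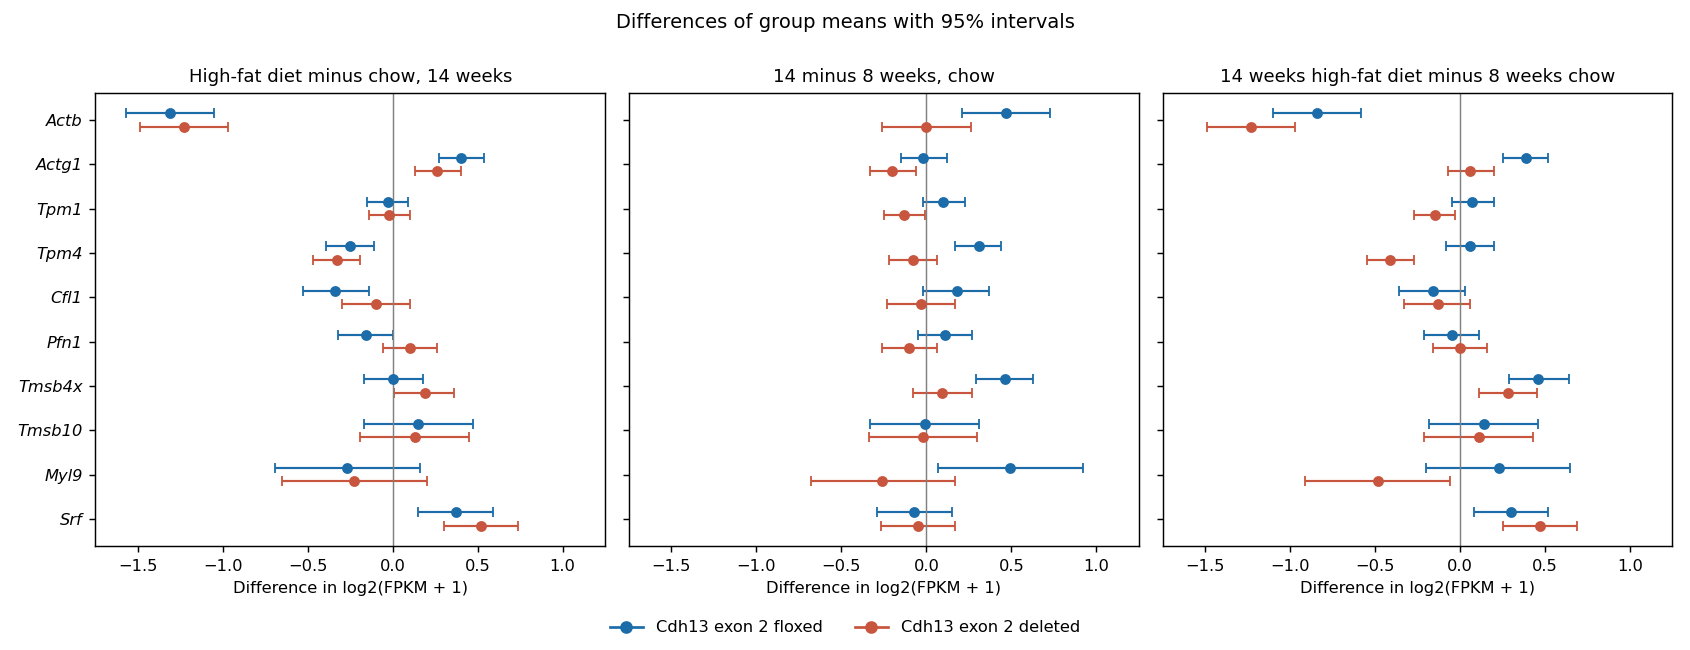
Differences of group means in log2(FPKM + 1) with 95% intervals for the 10 genes, floxed in blue and deleted in red, for diet at 14 weeks, age on chow, and high-fat diet against 8 weeks. In the left panel Actb lies at -1.31 and -1.23 and the other 9 genes between -0.34 and 0.52; with the same sum per library Actg1 moves from 0.40 and 0.26 to -0.07 and -0.20.

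The diet libraries, which chose the set, were also placed beside the 8-week chow libraries, where age and diet differ together; these values are a description and no independent support. Actb read 192, 180.5 and 197 FPKM in floxed and 290.1, 222 and 229 FPKM in deleted islets at 8 weeks. The diet libraries lay below these too, with log2 differences of -0.84 (SE 0.124) and -1.23 (SE 0.124). Actb was one of 2.19% of tested genes whose 6 diet libraries all lay below all 12 chow libraries, and Srf one of 3.88% whose diet libraries all lay above. Tpm4 did not keep its place: in floxed islets it was 72.4 ± 1.68 FPKM at 8 weeks against 75.4 ± 3.94 FPKM on the diet, a difference of 0.06 (95% interval -0.08 to 0.20), and in deleted islets -0.41 (-0.55 to -0.27). Actg1 differed by 0.39 (0.25 to 0.52) in floxed and 0.06 (-0.07 to 0.20) in deleted islets.

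Age on chow, 14 against 8 weeks, was tested next. It shares the 14-week chow libraries with the diet comparison. Actb was chosen for being higher in those libraries than on the diet, which favours a rise with age. Its call below is therefore a description and no independent support. In floxed islets 3 of the 10 genes were called, all higher at 14 weeks, against 4.15% of all tested genes. Tmsb4x rose from 286, 346 and 327 FPKM to 397, 454 and 469.9 FPKM, a log2 difference of 0.46 (SE 0.0829, limma adjusted p = 0.00296), and kept its call in all 28 alternatives. Tpm4 rose from 71.3, 74.3 and 71.5 FPKM to 86.3, 93 and 89.8 FPKM, by 0.31 (SE 0.0663, adjusted p = 0.0109), but without the second 14-week chow library its difference was 0.28 with an adjusted p of 0.0664. Actb was higher in all 3 libraries at 14 weeks, by 0.47 (SE 0.124, adjusted p = 0.0399). That call was the least secure: 11 of 28 alternatives ended it, with differences of 0.38 to 0.51 in these. They were no filter on low values, the same sum without hormone genes, quantile normalisation, and leaving out floxed 14-week chow library 1 (0.38, adjusted p = 0.134) or 3 (0.47, 0.114), floxed 8-week library 1 (0.48, 0.112), 2 (0.43, 0.118) or 3 (0.49, 0.0801), floxed high-fat diet library 2 (0.47, 0.051), or deleted high-fat diet library 2 (0.47, 0.0522) or 3 (0.47, 0.0511).

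In deleted islets the same age comparison called none of the 10 genes with limma, against 2.91% of all genes, and 2 had an unadjusted p below 0.05 (Actg1 at -0.20 and Tpm1 at -0.13), as did 15.2% of all genes. Actb differed by -0.00 (95% interval -0.26 to 0.26), from 247 ± 37.4 to 249 ± 57.8 FPKM (SD, n = 3). Whether age acted differently in the genotypes was tested as an interaction, a comparison added after the data were seen. It called none of the 10 genes with limma, against 0.196% of all genes, and 5 had an unadjusted p below 0.05, all with a negative interaction, that is a lower value of 14 minus 8 weeks in deleted islets, and 8.91% of all genes were below that unadjusted p. Tpm4 had the lowest adjusted p of the 10, with an interaction of -0.39 (SE 0.0938, adjusted p = 0.106). Actb was at -0.47 (SE 0.175, adjusted p = 0.385) and Myl9 at -0.75 (SE 0.287, adjusted p = 0.399). With the same sum per library the all-gene share of calls that were higher with age went from 77.2% to 98.3% in floxed and from 80.6% to 97.9% in deleted islets.

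Genotype was compared within each age and diet, deleted against floxed. At 8 weeks limma called none of the 10, against 0.548% of all genes, while 6 had an unadjusted p below 0.05, 5 of them higher in deleted islets, where 12.5% of all genes were below that value. Actb was at 247 ± 37.4 against 190 ± 8.44 FPKM without overlap, a log2 difference of 0.37 (SE 0.124, adjusted p = 0.195), which became a call (adjusted p = 0.0457) without the third deleted 14-week chow library. At 14 weeks on chow limma again called none, against 0.114% of all genes, and 2 had an unadjusted p below 0.05 (Tpm4 at -0.17 and Tmsb4x at -0.25), as did 7.98% of all genes. On the high-fat diet 1 of the 10 was called, against 10.7% of all genes. This was Tpm4, lower in deleted islets in all 3 libraries, by -0.25 (SE 0.0663, limma adjusted p = 0.0183). The call was lost with the same sum per library (adjusted p = 0.0916), without deleted library 2 (-0.19, 0.106) or 3 (-0.25, 0.0537), and without floxed library 2 (-0.22, 0.0849) or 3 (-0.25, 0.0536). Actb did not differ beyond its spread on the diet, at -0.02 (95% interval -0.28 to 0.24). As shares of all calls, those higher in deleted islets went from 32.8% to 43.3% at 8 weeks and from 57.1% to 40.7% at 14 weeks on chow under quantile normalisation, the latter also to 39.3% with either same-sum rescaling.

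The interaction of genotype and diet asked whether the diet difference itself depended on genotype. Limma called none of the 10 genes, against 3.53% of all genes, and 1 had an unadjusted p below 0.05 (Pfn1 at 0.26, SE 0.109, adjusted p = 0.229), as did 17.1% of all genes. For Actb the diet differences of both genotypes were within 0.08 of each other (95% interval -0.29 to 0.45); Actb was chosen for a lower value in both genotypes, which favours such likeness, and nothing is read from it. The interval for Srf was -0.16 to 0.46 around 0.15, and for Tpm4 -0.28 to 0.11 around -0.08.

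Other actin genes were taken from lists by role, 120 in all, of which 103 passed the filter on low values. As deposited, 30 fell and 6 rose on the diet in floxed islets, with a median difference of -0.08, and 11 fell and 7 rose in deleted islets, with a median of -0.04. Of these, 11 fell in both genotypes and 4 rose in both, beside 403 and 656 of the 12234 tested genes. The share called, 36 of 103 and 18 of 103, stands beside 28.5% and 15% of all tested genes. Over all tested genes 13.5% fell and 15% rose in floxed islets, and 5.91% fell and 9.05% rose in deleted islets. As deposited, the other actin genes thus leaned more toward falls than all tested genes did. The split between fallen and risen genes also moved with the scaling, as it did over all genes. With the same sum per library 8307 (floxed) and 8385 (deleted) of 12299 tested genes were called, 3.5% and 2.3% of them higher. Of the other actin genes 85 fell and 1 rose in floxed islets and 83 and 0 in deleted islets. Leaving out hormone genes, 4247 and 2773 of 12248 genes were called, 25.2% and 24.1% of them higher. Of the other actin genes 47 fell and 3 rose in floxed islets then, and 29 and 2 in deleted islets. In deleted islets single libraries also moved the counts: 5, 7 or 6 genes fell without high-fat diet library 2 or 3 or chow library 1, and 2, 3, 3 or 2 rose without high-fat diet library 1, 2 or 3 or chow library 3.

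**Figure D4:**
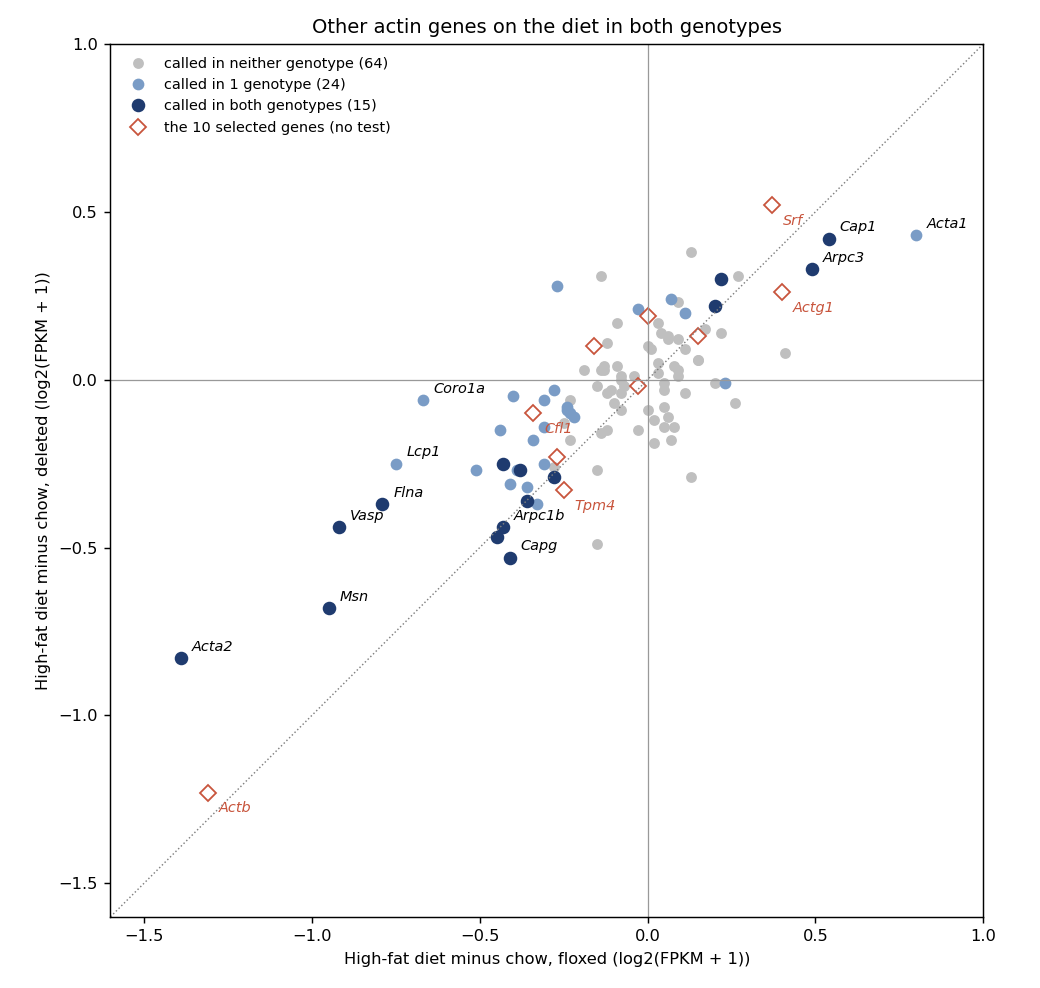
Diet difference in log2(FPKM + 1) in floxed (x) and deleted (y) islets for 103 other actin genes, shaded by call, and for the 10 selected genes (open diamonds); the dotted line marks equal differences. Of the 103, 15 were called in both genotypes, 11 lower and 4 higher as deposited, and Actb lies lower than all of them in deleted islets.

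The actin isoform Acta2, of smooth muscle and activated stromal cells, fell the most, from 5.53 ± 1.86 to 1.45 ± 0.391 FPKM in floxed islets (-1.39, SE 0.265, adjusted p = 9.59e-04) and from 2.54 ± 1.05 to 1.01 ± 0.65 FPKM in deleted islets (-0.83, adjusted p = 0.0433). Acta1, the skeletal muscle actin, rose in floxed islets from 2.47 ± 0.158 to 5.05 ± 0.649 FPKM (0.80, adjusted p = 8.84e-04), and its difference in deleted islets was 0.43 (adjusted p = 0.0713). Tmod3, which caps slow-growing filament ends, fell by 0.36 in both. Capping, bundling and membrane-linking genes had 9 of 20 fall and 0 rise in floxed islets, and 4 and 0 in deleted islets; of all tested genes 13.5% and 5.91% fell. With the same sum per library 20 and 18 of these 20 fell. Under that scaling 8307 and 8385 of 12299 tested genes were called, 3.5% and 2.3% of them higher. Msn, moesin, which ties filaments to the membrane, fell from 36.4 ± 2.62 to 18.6 ± 4.04 FPKM in floxed islets (-0.95, adjusted p = 3.66e-05) and from 25.4 ± 3.74 to 15.4 ± 2.06 FPKM in deleted islets (-0.68, adjusted p = 0.00166). The crosslinker Flna fell by 0.79 and 0.37, and the leukocyte bundling protein Lcp1 fell by 0.75 in floxed islets and was at -0.25 in deleted islets (adjusted p = 0.107). In floxed islets at 8 weeks Msn averaged 20.7, Flna 5.77 and Lcp1 5.09 FPKM, beside 18.6, 5.15 and 4.1 FPKM on the diet. In deleted islets they averaged 29.9, 6.59 and 5.45 FPKM, beside 15.4, 5.73 and 5.17 FPKM. Acta2 averaged 2.1 and 2.69 FPKM at 8 weeks (floxed, deleted). Tmod3 averaged 12.5 and 13.1 FPKM then, beside 10.6 and 10.2 FPKM on the diet. For Msn, Flna, Lcp1 and Acta2 the floxed 14-week chow libraries stood above both the 8-week and the diet libraries.

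Genes that build and recycle filaments were mixed as deposited. Over all tested genes 13.5% fell and 15% rose in floxed islets, and 5.91% fell and 9.05% rose in deleted islets. Of 20 genes for the Arp2/3 complex, which branches filaments, and its activators, 5 fell and 3 rose in floxed islets and 2 fell and 3 rose in deleted islets. Its subunits parted: Arpc1b fell by 0.43 and 0.44, while Arpc3 rose by 0.49 and 0.33 as deposited. With the same sum per library Arpc3 was at 0.03 and -0.13, or 0.44 and 0.27 relative to the median of all genes. Of 16 monomer and turnover genes 5 fell and 1 rose in floxed islets, and 0 fell and 1 rose in deleted islets. The monomer recycling gene Cap1 rose by 0.54 (adjusted p = 9.82e-05) and 0.42 (adjusted p = 0.00182), or was at 0.10 and -0.01 with the same sum. Relative to the median of all genes under the same sum Cap1 was at 0.51 and 0.39. Coro1a, a coronin of leukocytes, fell by 0.67 in floxed islets and was at -0.06 in deleted islets (adjusted p = 0.89). Among 10 formin and Ena/VASP genes 1 fell in each genotype. This was Vasp, which speeds filament growth and fell from 10.1 ± 1.12 to 4.87 ± 0.309 FPKM in floxed islets (-0.92, adjusted p = 7.85e-06) and from 7.78 ± 1.08 to 5.44 ± 0.501 FPKM in deleted islets (-0.44, adjusted p = 0.00968). Among 13 genes that anchor filaments at adhesions 6 fell and 1 rose in floxed islets and 3 fell in deleted islets, Pdlim1 by 0.45 and 0.47. At 8 weeks on chow Arpc1b averaged 43.6 and 44.6 FPKM (floxed, deleted), beside 48.3 and 42.8 FPKM on the diet. Pdlim1 averaged 6.21 and 8 FPKM at 8 weeks and 9.38 and 5.94 FPKM on the diet. Coro1a averaged 3.63 and 3.85 FPKM at 8 weeks and 3.75 and 4.57 FPKM on the diet. Vasp, at 7.33 and 8.31 FPKM at 8 weeks, was lower on the diet than at either age on chow.

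Of 25 other SRF and MRTF targets and cofactors, 12 fell and 1 rose in floxed islets and 5 fell in deleted islets. Of all tested genes 13.5% and 5.91% fell. Some of the 25, Acta2 and Flna among them, were already counted in the lists above. The medians were -0.19 and -0.11, while Srf itself was higher as deposited. With the same sum per library, where most called genes fell, 19 of the 25 fell in each genotype. Ctgf, a secreted matrix protein, fell from 26.2 ± 6.63 to 10.7 ± 2.38 FPKM in floxed islets (-1.21, adjusted p = 1.17e-04) and by 0.81 in deleted islets (adjusted p = 0.00548). Tagln, a smooth muscle actin binder, fell by 1.16 in floxed islets and was at -0.56 in deleted islets (adjusted p = 0.12). At 8 weeks on chow Ctgf averaged 12.6 and 22.1 FPKM (floxed, deleted), beside 10.7 and 10.2 FPKM on the diet. Tagln averaged 1.42 and 1.61 FPKM at 8 weeks and 0.696 and 1.18 FPKM on the diet. The falls of Acta2, Tmod3, Msn, Flna, Arpc1b, Vasp, Pdlim1 and Ctgf in both genotypes were called under all 4 other scalings. So were those of Lcp1, Coro1a and Tagln in floxed islets. These scalings are not independent checks: median-ratio scaling nearly repeats the main fit, with ratios of 0.997 to 1.009. Both same-sum scalings move the median of all genes down, in floxed islets to -0.409 and, without hormone genes, -0.123, which favours falls.

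Other polymers and reference genes gave a yardstick. Of 11 tubulins, which form microtubules, 9 fell in floxed islets, while 2 fell and 3 rose in deleted islets. With the same sum per library 9 fell and 0 rose in deleted islets. The interaction test was passed by 5, all with a less negative or higher diet difference in deleted islets. Of all tested genes 13.5% fell and 15% rose in floxed islets, and 5.91% fell and 9.05% rose in deleted islets. The interaction called 3.53%. Tuba1a fell by 0.94 and 0.33 and Tuba1b by 0.86 and 0.35. Of 14 genes often used as references, 4 rose and 1 fell in floxed islets, and 3 rose and 1 fell in deleted islets. The translation factor Eef1a1 rose by 0.41 and 0.52 as deposited but was at -0.07 and 0.05 with the same sum per library. Relative to the median of all genes under that scaling it was at 0.34 and 0.46. The ribosomal gene Rplp0 rose by 0.36 and 0.27 as deposited but was at -0.11 and -0.19 with the same sum. Relative to that median it was at 0.30 and 0.21. With the same sum per library 10 of the 14 references fell and 0 rose in floxed islets, and 12 fell and 0 rose in deleted islets. Beside these, 8307 and 8385 of 12299 tested genes were called under that scaling, 3.5% and 2.3% of them higher.

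Markers of other cells moved with the same comparison. In whole islets fewer cells of a type and less RNA per cell cannot be told apart. The counts below stand beside 13.5% lower and 15% higher of all tested genes in floxed islets. In deleted islets these shares were 5.91% and 9.05%, and the interaction test called 3.53%. Of 11 tested macrophage markers 7 fell in floxed and 2 in deleted islets, and the summed level of the list was 381 to 439 FPKM on chow and 248 to 272 FPKM on the diet in floxed islets, and 303 to 381 and 243 to 256 FPKM in deleted islets. At 8 weeks that sum was 253 to 280 and 261 to 288 FPKM. Of 11 stromal and pericyte markers, a list that holds Acta2 and Tagln, 4 and 7 fell, with sums of 40.6 to 68.3 FPKM on chow and 22.7 to 45.6 FPKM on the diet in floxed islets and 30 to 47.7 and 15.1 to 19.5 FPKM in deleted islets. Of 11 endothelial markers 5 and 4 fell, with sums of 220 to 230 and 176 to 226 FPKM, and 165 to 188 and 146 to 156 FPKM. Acinar markers fell for 13 and 10 of 13, from sums of 1187 to 5693 FPKM to 25.9 to 341 FPKM in floxed islets and from 1739 to 3178 to 112 to 243 FPKM in deleted islets. At 8 weeks the stromal, endothelial and acinar sums were 26.9 to 34, 144 to 189 and 107 to 269 FPKM in floxed islets. In deleted islets they were 30.3 to 34.8, 188 to 213 and 46.7 to 1541 FPKM. The floxed diet sums of these lists thus overlapped the 8-week sums. In deleted islets the stromal and endothelial diet sums lay below the 8-week sums, and the acinar sums overlapped. Amy2a5 was listed at 0 in all 18 libraries, Prss1 in 15 and Cnn1 in 9. Duct markers fell for 3 and 1 of 5 and erythroid markers for 1 and 3 of 4. Of 10 beta cell markers 4 rose and 1 fell in floxed islets and 9 rose in deleted islets (2 rose and 5 fell, and 3 rose and 2 fell, with the same sum). Of 6 alpha cell markers 2 fell in floxed and 3 rose in deleted islets, and 4 passed the interaction test. Of 5 delta and PP cell markers 3 fell in floxed and 2 rose in deleted islets, and 3 passed the interaction test. The part of these cells in the difference of Actb and of the other actin genes was not tested.

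**Figure D5:**
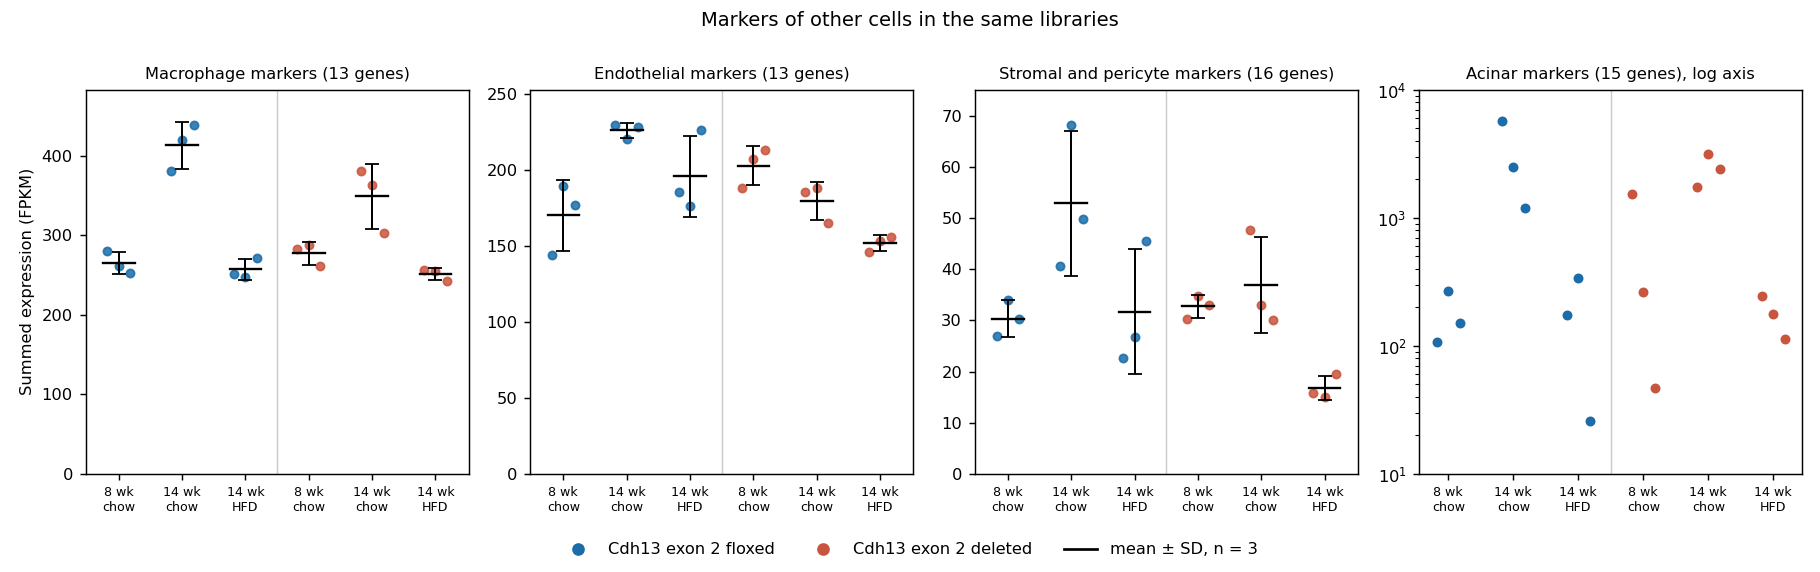
Summed FPKM of marker lists for macrophages, endothelial cells, stromal cells and pericytes, and acinar cells (log axis, points only), per library with mean ± SD (bars, n = 3). Macrophage markers are at 381 to 439 FPKM in floxed islets at 14 weeks on chow and at 248 to 280 FPKM both at 8 weeks and on the diet.

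The genes whose log2(FPKM + 1) followed Actb most closely over the 18 libraries were in neither the set nor the lists of other actin genes. Whether any of them acts on actin was not examined. The 10 highest Pearson correlations belonged to Psmd11 (0.949), a proteasome subunit, the translation factors Eif4g2 (0.946) and Eif4a1 (0.934), the long non-coding RNA Tug1 (0.941), Ivns1abp (0.940), the mitochondrial leucyl-tRNA synthetase Lars2 (0.939), Vat1l (0.928), Ank2 (0.915), Mut (0.912) and Trip12 (0.907). Within groups, after the group means were taken out, the coefficients lay between -0.065 and 0.584, so the likeness is mostly one of group means. Of the set, Tpm4 came nearest, at 0.689 (place 778 of 12233), then Cfl1 at 0.563, Myl9 at 0.361, Tpm1 at 0.269 and Pfn1 at 0.191. Tmsb10, Tmsb4x, Actg1 and Srf ran opposite, at -0.350, -0.418, -0.706 and -0.856 as deposited, the last at place 12054. All points share the 6 groups, the library scaling and the diet contrast that chose Actb, and the coefficients are descriptions.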

How the data were processed

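Full-length cDNA made with SMART-Seq HT and Nextera libraries, which do not mark strand, were used on total RNA, per the labels' protocols. The authors deposited 1 table per library with 1 value per gene symbol, read here as FPKM because the submitters' processing notes name Cufflinks 2.2.1, with TopHat2 2.0.13, Bowtie2 2.2.3, SAMtools 0.1.19 and mm10. The sources used here give neither annotation nor filters, nor the role of each tool. Each library's median ratio to the geometric mean library was 0.997 to 1.009 while sums differed 1.54-fold, as after a rescaling between libraries. Among 404 to 517 genes under 0.1 FPKM, 24.8% to 31.9% of the ratios between libraries fell in 1 step of 0.02 log2, and that step spanned 1.39-fold over libraries; no counts were recovered from it.

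The 12234 genes that reached 1 FPKM in 3 or more of 18 libraries were fitted on log2(FPKM + 1) with limma 3.58.1 in R 4.3.3, with 6 group means and a trended, robust prior, and Benjamini-Hochberg adjustment over all of them. Fold changes of low genes are understated by the pseudocount of 1. The script was tested on simulated data. The members and gene lists were chosen with earlier results of these data known. All 10 members were described in every comparison. From each other actin, tubulin, filament and reference list, up to 3 genes called in either diet contrast with the largest mean difference could be named, as could the 10 genes most correlated with Actb. The alternatives were another pseudocount, 2 other filters, 4 scalings, quality weights, only the groups compared, a replicate block, and each library left out. Promoters came from RefSeq (GRCm38.p6) and transcripts from GENCODE M21.
One gene list of the set of other actin genes is not reported here.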

Additional observations from a re-analysis of the deposited data

Results flagged for a closer look

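The genotype difference of Tpm4 lay on opposite sides in the youngest and the high-fat diet libraries. At 8 weeks on chow the deleted libraries (82.9 to 86.1 FPKM) were all above the floxed ones (71.3 to 74.3 FPKM), a log2 difference of 0.22. It was not called (limma adjusted p = 0.152), and 880 of 12234 tested genes were higher without overlap there. On the high-fat diet the deleted libraries (57.5 to 69.6 FPKM) were all below the floxed ones (71.4 to 79.3 FPKM), a log2 difference of -0.25. It was called (limma adjusted p = 0.0183), but 5 of 28 alternatives ended that call, and 1864 tested genes were lower without overlap there. The difference between these differences was not tested, since age and diet change together. At 14 weeks on chow the genotype difference was -0.17, and its distance from the 8-week value, -0.39, had an adjusted p of 0.106 with limma.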

How the results depend on the processing

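Values are FPKM of unknown depth from 3 libraries a group, so only the spread between libraries limits them. Actb stayed lower on the diet in both genotypes under all 28 alternatives run. These reuse the libraries on which Actb was chosen for being lower, so they are no independent support. Actg1 on the diet reversed to -0.07 (floxed) and -0.20 (deleted) with the same sum over all genes, and to -0.05 (deleted) under quantile normalisation. Relative to the median of all genes its same-sum values were 0.34 and 0.21. The cause of changed counts was not tested. Counts are in the order diet floxed, diet deleted, age floxed, age deleted, genotype at 8 weeks, on chow at 14 weeks and on high-fat diet, genotype-diet and genotype-age interaction; as reported they were 3486, 1830, 508, 356, 67, 14, 1312, 432 and 24 genes. With the same sum over all genes they were 8307, 8385, 1204, 1287, 43, 28, 783, 285 and 11; 8 and 8 of the 10 genes were called on the diet, 6 and 1 with age and 0 for genotype on the diet; other actin genes were 85 lower and 1 higher (floxed) and 83 and 0 (deleted). For the other settings only counts that moved by more than 1.5 times are given. With the same sum without hormone genes these were diet deleted 2773, 14 weeks on chow 28 and genotype-age 13, with other actin genes 47 lower and 3 higher, and 29 and 2. Quantile normalisation gave 27 at 14 weeks on chow and 4 other actin genes higher (deleted). Quality weights gave 2834, 963, 1032, 406, 114, 778 and 182 genes for diet deleted, age floxed, age deleted, 8 weeks, 14 weeks on chow, genotype-diet and genotype-age, with other actin genes 17 lower and 11 higher (deleted), and 2 of the 10 genes called at 8 weeks (Actg1, Tpm1) and 1 for genotype-age (Tpm4). Fitting only the groups compared gave 86 for age deleted, 2 at 14 weeks on chow and 14 for genotype-age, 4 other actin genes higher (deleted) and 2 of the 10 for genotype on the diet (Tpm4, Actg1). No filter gave 25 at 8 weeks and 3 for genotype-age, and a mean of at least 5 FPKM gave 25 at 14 weeks on chow. Correlations of the deviations of same-numbered libraries ran from -0.159 to 0.166 and were not all over 0.1 in any comparison. In 2 of 7 comparisons (diet in floxed islets, genotype on the diet) each was above the highest with another number, a hint from the data and not the design. The replicate block gave 3392, 1729, 510, 336, 64, 11, 1252, 409 and 26 genes. Leaving out 1 library gave 2585 to 3680, 1159 to 2082, 232 to 636, 149 to 399, 16 to 168, 3 to 30, 820 to 1568, 257 to 519 and 4 to 41 genes. It gave 4 to 5 and 4 of the 10 genes on the diet, 2 to 3 with age in floxed islets, 0 to 1 for genotype at 8 weeks and 0 to 1 on the diet, and other actin genes 21 to 31 lower and 5 to 7 higher (floxed) and 5 to 13 lower and 2 to 10 higher (deleted).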
